A study of Danio rerio with 5 samples.

Results

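The 2 chromatin marks of the zebrafish embryo at 48 hours post fertilisation (48 hpf) are described here against each other: trimethylation of lysine 27 of histone H3 (H3K27me3), measured by ChIP-seq, and DNA methylation, measured by MethylCap-seq, which captures methylated DNA fragments with a methyl-CpG binding protein. All peaks of both 48 hpf lists on chromosomes 1 to 25 were taken, which gave 6434 H3K27me3 peaks and 192673 MethylCap peaks, together 199107 of the 781830 peaks in the 5 lists of the series. Both libraries came from whole embryos of mixed AB and Tubingen strains, and the labels name no treatment or mutation. The other 3 lists are both marks at dome, when the embryo is a late blastula, and MethylCap at 24 hpf, and each of the 5 groups has 1 library. Nothing in the labels used here says how many embryos a library pooled.

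H3K27me3 is laid down by Polycomb repressive complex 2 and is known in vertebrates for covering silent genes of developmental regulators, where it can spread over broad stretches. DNA methylation in vertebrates covers most of the genome and is typically missing from CpG islands, the CpG-dense stretches that Polycomb tends to occupy. The comparison within 48 hpf asks where the peak calls of the marks overlap or stay apart, and whether this depends on how wide the H3K27me3 peak is. Since whole embryos mix many cell types, a site with both calls may carry them in the same cells or in different ones, and these cannot be told apart.

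The H3K27me3 peaks had a median width of 760 bp (quartiles 440 and 1249, range 247 to 10493) and covered 6.39 Mb of the 1357 Mb spanned by peaks on the chromosomes (danRer7, the UCSC name of Zv9). The MethylCap peaks had a median width of 309 bp (quartiles 240 and 436) and covered 5.30% of the span, with 142 summits per Mb. The summit is the position of highest signal that the peak caller stored for each MethylCap peak. No test was made between libraries, since each group had 1. Sequencing depth was unknown, and the absence of a peak may mean signal below the detection limit. MethylCap peaks covered a small part of the span, whereas methylation covers most of a vertebrate genome. A stretch without a peak is therefore not taken as unmethylated. The windows, flanks and bases used for comparison were not matched for CpG content, since no sequence was used. An effect of CpG content on the ratios was not tested. Intervals are 95% intervals that cover counting error only and treat peaks, their edges and summits as independent.

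Narrow H3K27me3 peaks met MethylCap peaks more often than windows of their size do, and wide peaks far less often. Over the whole list, 778 of 6434 peaks (12.1%) overlapped a MethylCap peak by at least 1 bp. Of the 1951 peaks below 500 bp, 282 did so (14.5%, Wilson interval 13.0 to 16.1%). Among the 2190 peaks of 500 to below 1000 bp it was 268 (12.2%, 10.9 to 13.7%). Among the 2293 peaks of 1000 bp or more it was 228 (9.94%, 8.78 to 11.2%). A wide stretch meets a MethylCap peak more readily than a narrow one, so each class was set beside every possible window of the same widths on the same chromosomes, counted exactly. Of these windows, 10.04%, 14.7% and 25.9% overlapped a MethylCap peak in the 3 classes. The observed shares were thus 1.44 times, 0.830 times and 0.384 times those of the windows.

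**Figure D1:**
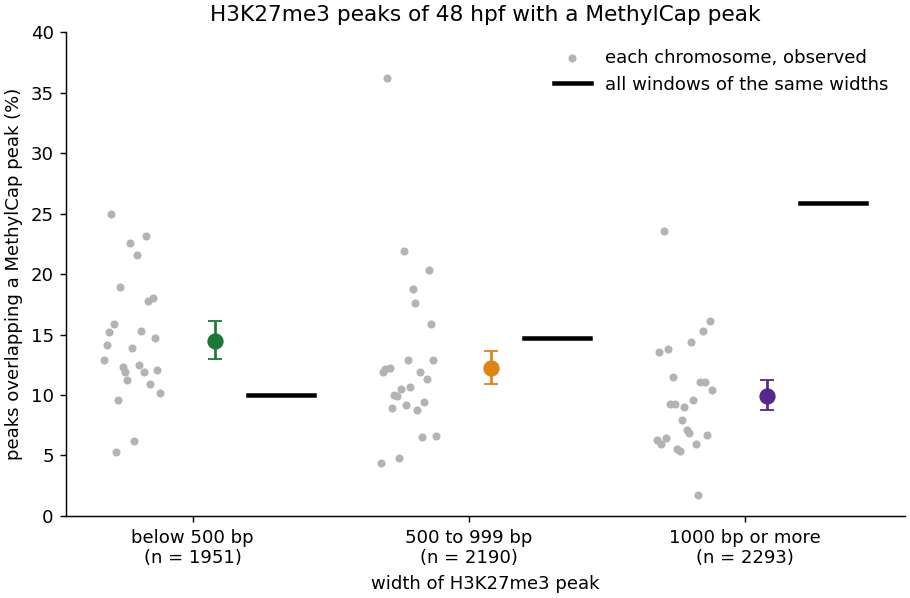
Share of 48 hpf H3K27me3 peaks that overlap a MethylCap peak (vertical axis, percent) in 3 width classes. Coloured points with bars are the shares with Wilson 95% intervals, grey points are the 25 single chromosomes, and black lines are the shares of all windows of the same widths. The coloured point lies above the line below 500 bp (14.5% against 10.04%) and far under it from 1000 bp (9.94% against 25.9%).

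In finer steps the ratio to windows fell at each step of width. It was 1.71 for peaks below 300 bp (102 of 675), 1.29 from 400 to below 500 bp, 1.07 from 500 to below 700 bp and 0.670 from 700 to below 1000 bp. It was 0.547 from 1000 to below 1500 bp, 0.231 from 2000 to below 3000 bp, and 0.197 in the 218 peaks of 3000 bp or more, of which 19 overlapped a MethylCap peak. The share of peaks itself moved less than the ratio, from 15.1% (12.6 to 18.0%) in the narrowest step to 8.72% (5.65 to 13.2%) in the widest. The class bounds do not mark a break. The 100 peaks just under 500 bp (481 to 499 bp) and the 100 from 500 to 522 bp had 12 and 13 overlaps, and the 100 peaks on each side of 1000 bp had 10 and 13.

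The order of the narrow and the wide class, by ratio to windows, was found on nearly every chromosome. The ratio to windows was below 1 for wide peaks on all 25 chromosomes, from 0.0664 on chromosome 19 (1 of 58 peaks) to 0.865 on chromosome 4. For peaks below 500 bp it was above 1 on 22 chromosomes, and the lowest value was 0.543 on chromosome 6 (5 of 94 peaks). The ratio was higher for the narrow than for the wide class on 24 of 25 chromosomes, the exception being chromosome 6. It fell through all 3 classes on 20. The share of peaks itself was higher in the narrow than in the wide class on 19 of 25. Chromosome 4 had the highest share in each class, with 24 of 96 narrow, 29 of 80 middle and 20 of 85 wide peaks. From 30 Mb to its end the shares were 47.7% of 44 narrow, 54.0% of 50 middle and 56.5% (36.8 to 74.4%) of 23 wide peaks. Windows of the whole chromosome, at the widths of these wide peaks, gave 25.9%. Below 30 Mb they were 5.77%, 6.67% and 11.3%. Set against windows of the whole chromosome, wide peaks in its distal part were thus not depleted. Windows of the distal part alone were not counted, so depletion against the MethylCap density of that part cannot be judged. That part is known for repeats, and the sources used here do not say what was done with reads that map to several places. Mapping was not tested.

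Counted by summits, which do not depend on the reach of a wide MethylCap peak, the narrow class stood further above the others. A summit lay inside 593 of the 6434 peaks (9.22%), and inside 192 narrow, 205 middle and 196 wide ones. H3K27me3 peaks below 500 bp held 193 summits, or 283 per Mb (exact Poisson interval 244 to 326). The middle class held 215, or 134 per Mb (116 to 153), and the wide class 258, or 62.9 per Mb (55.5 to 71.1). In the flanks from 10 to 50 kb the densities were 144, 141 and 138 per Mb, which lie close to each other and to the 142 per Mb of the whole span. Density inside was thus 1.96 times that of the flanks in narrow peaks and 0.456 times in wide ones, and in the middle class (0.951 times) the interval of the inside density held the flank value. With MethylCap peaks of −log10 q of at least 5 only, the middle class passed to the other side of its flanks (1.29 times). MethylCap peaks covered 10.5% of the bases of narrow, 5.91% of middle and 2.97% of wide H3K27me3 peaks, against 5.30% of the span.

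The manner of overlap also differed with width. A MethylCap peak of median width (309 bp) is close in size to a narrow H3K27me3 peak, whose median was 343 bp, and small beside a wide one, whose median was 1495 bp. Of the 290 overlapping pairs with narrow H3K27me3 peaks, 87 had the whole H3K27me3 peak within the MethylCap peak, 170 crossed 1 edge and 33 had the MethylCap peak inside. Of the 301 pairs with wide H3K27me3 peaks, 161 (53.5%) had the MethylCap peak inside, 133 (44.2%) crossed 1 edge and 7 spanned the whole H3K27me3 peak. Where a narrow peak overlapped at all, MethylCap covered a median of 85.3% of it. In the wide class the median was 27.2%, and 58 of 228 peaks were covered over 50% or more of their length. These arrangements and covered shares depend on the sizes of both kinds of peak. No expected values were computed, so a difference beyond that of size cannot be judged. Most overlapping H3K27me3 peaks held 1 MethylCap peak (677 of 778), 91 held 2 and 10 held 3 or more.

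H3K27me3 edges lay farther from MethylCap summits than an average base of the chromosomes. Each peak gave 2 edges, so that 12868 distances were measured to the nearest summit on either side. The median was 3240 bp (3100 to 3327) for narrow, 3889 bp (3740 to 4030) for middle and 5020 bp (4889 to 5178) for wide peaks. Over every base of the chromosome span the median distance was 2442 bp, with quartiles of 1015 and 4985 bp. The median of the edges was above that of all bases of the same chromosome on 22, 24 and 25 of 25 chromosomes in the 3 classes. It was higher for wide than for narrow peaks on all 25. Chromosome 4 was an exception to the distance in the narrow and middle classes, with medians of 1945 and 1603 bp against 2305 bp for its bases.

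The narrow class combined both tendencies. Of its edges, 10.97% lay within 250 bp of a summit, against 7.06% of all bases, yet only 35.2% lay within 2000 bp, against 43.2%. Compared with all bases, the narrow class thus had more edges very near a summit and fewer at middle distances. A summit inside a peak below 500 bp always lies within 250 bp of an edge, and 192 narrow peaks held one. The excess of near edges is therefore not separate from the summits inside. In the first 250 bp outside narrow peaks the density was 127 summits per Mb (106 to 152), with no excess over the span. In the wide class 3.75% of edges lay within 250 bp, 18.9% within 2000 bp and 49.8% within 5000 bp, where all bases reached 75.1%. Looking outward only, the median distance to the next summit was 6223, 6672 and 7643 bp in the 3 classes, against 4883 bp from a base to the next summit on 1 side.

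**Figure D2:**
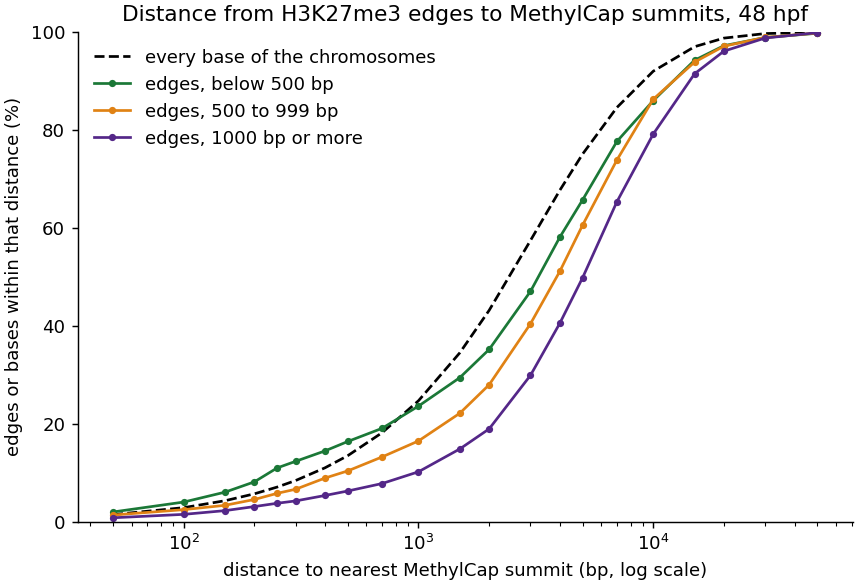
Cumulative share of H3K27me3 edges (vertical axis, percent) by distance to the nearest MethylCap summit (horizontal axis, bp, log scale), for 3 width classes and, dashed, for every base of the chromosomes. The curve of the narrow class lies above the dashed one close to the edge (10.97% against 7.06% within 250 bp) and below it from 1000 bp on, and the curve of the wide class is below it throughout.

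H3K27me3 peaks without a summit stood in longer stretches free of summits than summit-free windows of their widths do. The stretch between the nearest summits on both sides had a median of 14799 bp (14178 to 15602) around 1759 narrow peaks, 16287 bp (15766 to 16880) around 1985 middle peaks and 19853 bp (19073 to 20805) around 2095 wide peaks. A window that holds no summit lies in a stretch at least as long as itself, so every summit-free window of the same widths on the same chromosomes was counted. Their medians were 11780, 12277 and 13493 bp, and the stretches around the peaks were 1.26, 1.33 and 1.47 times as long. A stretch that held several peaks was counted once for each, so these intervals too are likely too narrow. The longest such stretch on the chromosomes, 148547 bp, lay on chromosome 3 and held the 4 peaks that were farthest from any summit. These were below 1000 bp wide with folds of 1.65 to 1.68, for example chromosome 3 from 24009440 to 24009820 (381 bp, fold 1.67, 82587 bp from the summit on its left and 65580 bp from that on its right). The fifth such peak lay on chromosome 23 from 36141289 to 36141804, with summits 57295 and 60482 bp away. The longest stretch around a peak of 1000 bp or more was also 148547 bp. The stretch on chromosome 3 thus held more than those 4 peaks.

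Arranged by distance from the edge, MethylCap summits were sparse in and around wide peaks, with a local maximum just inside the edge. In wide peaks the density was 107 per Mb (89.2 to 128) in the first 250 bp inside, 58.4 (45.3 to 74.2) from 250 to 500 bp, 43.3 (32.5 to 56.5) from 500 to 1000 bp and 18.3 (7.35 to 37.7) from 1000 to 1500 bp. Deeper steps come more from the widest peaks, so these values mix depth with width. Just outside, the density was 44.5 per Mb (33.1 to 58.5) in the first 250 bp. It then rose to 75.9 at 1000 to 1500 bp, 117 at 2000 to 3000 bp, 131 at 5000 to 10000 bp and 141 at 20 to 50 kb. From 1500 to 2000 bp it was 94.3 (81.5 to 109), so that the density was still below the 142 per Mb of the span there.

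**Figure D3:**
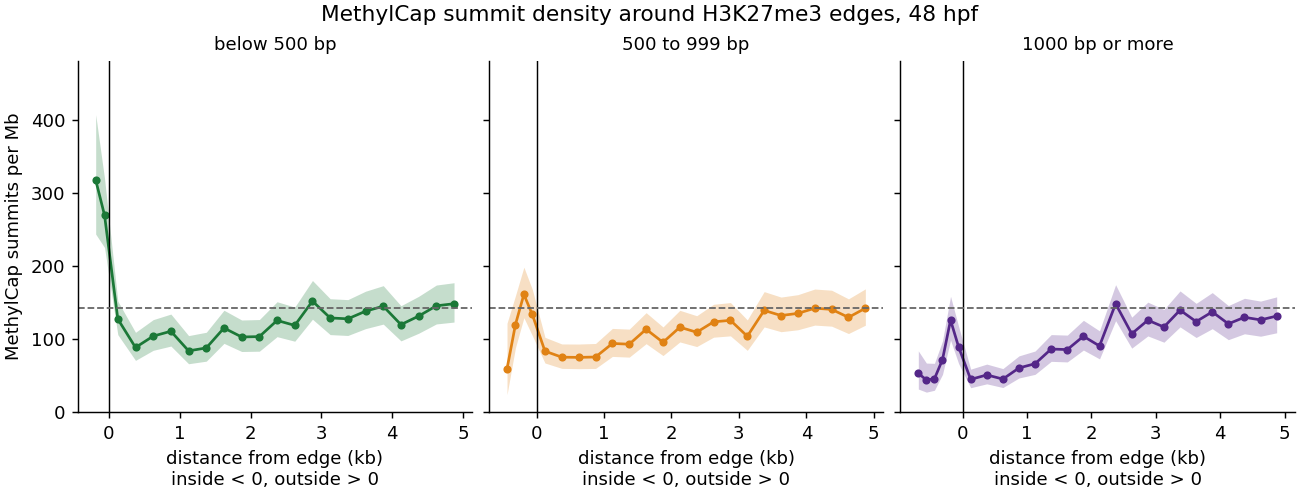
MethylCap summits per Mb (vertical axis) by distance from the nearest H3K27me3 edge (horizontal axis, kb, negative inside and positive outside), in 3 width classes. Shading is the exact Poisson 95% interval and the dashed line is the chromosome span (142 per Mb). Narrow peaks have their maximum inside. Wide peaks have only a local maximum in the first 250 bp inside, below values reached farther outside. All 3 classes lie below the dashed line in the first 2 kb outside.

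Of the 258 summits inside wide peaks, 123 (47.7%) lay within 250 bp of an edge, a zone with 28.0% of the bases. They fell in 112 peaks on 24 chromosomes, 63 at the left and 60 at the right edge, and at most 13 were on 1 chromosome. The density there was 2.85 times that deeper than 500 bp. Bases at that depth come more from the widest peaks, so the zones were also compared at like width. In the 635 peaks of 2000 bp or more the first 250 bp held 78.7 summits per Mb (51.0 to 116) and the bases from 500 bp on 28.4 (19.7 to 39.7). In the 1161 peaks of 1000 to 1499 bp the values were 124 (97.0 to 156) and 54.9 (29.99 to 92.0). The intervals of the zones did not overlap in either range of width. In the range of 1500 to 1999 bp they did, with 105 (68.3 to 153) and 56.1 (34.3 to 86.7). From 250 to 499 bp the values were 70.6 (50.7 to 95.8), 68.4 (39.9 to 110) and 28.3 (13.0 to 53.8), from the narrowest to the widest range. Their intervals overlapped those from 500 bp on in each range, so a further fall past 250 bp was not clear at like width. In the first 250 bp, 64.2% of the MethylCap peaks crossed the edge. Their median width was 359 bp, so that crossing is common for summits this near an edge, and no expected share was computed.

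Outside narrow peaks the density was also below that of the span, at 88.2 per Mb (70.5 to 109) from 250 to 500 bp and 85.5 (72.7 to 100.02) from 1000 to 1500 bp, although inside it was 283. Around peaks of the middle class it was 74.9 (63.7 to 87.5) from 500 to 1000 bp. In the first 250 bp outside narrow peaks it was 127 (106 to 152), an interval that held the value of the span. Density was lower outside than over the span in all 3 classes in the steps from 250 to 2000 bp.

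MethylCap peaks inside H3K27me3 peaks differed in strength between the classes. The fold enrichment of each MethylCap peak over its local background, as deposited, was turned into a percentile rank within the list. Its values are stepped, with 12622 peaks sharing the commonest fold of 4.15, so ranks are coarse. In narrow H3K27me3 peaks the 193 MethylCap peaks had a median rank of 75.9 (66.3 to 83.8) and a median fold of 5.23. In the middle class 215 had a median rank of 53.5 (45.8 to 66.4). In the wide class 258 had a median rank of 45.8 (38.9 to 56.0) and a median fold of 4.15. Over 5 kb from any H3K27me3 edge the median was 49.95, since those peaks are nearly the whole list, and within 1 kb outside it was 51.0 (45.8 to 54.0) in 968 peaks.

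The upper end of the list was over-represented inside all classes. By definition about 10% of the MethylCap peaks belong to the upper decile of fold, which starts at 6.23. In narrow H3K27me3 peaks 71 of 193 did (36.8%, 30.3 to 43.8%), in the middle class 36 of 215 (16.7%, 12.3 to 22.3%) and in the wide class 49 of 258 (19.0%, 14.7 to 24.2%). Within 1 kb outside it was 12.9% (10.9 to 15.2%) and from 1 to 5 kb 9.80%. The wide class was rich at both ends, since 48 of its 258 MethylCap peaks (18.6%, 14.3 to 23.8%) also belonged to the lowest decile. In the narrow class 6.74% did.

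**Figure D4:**
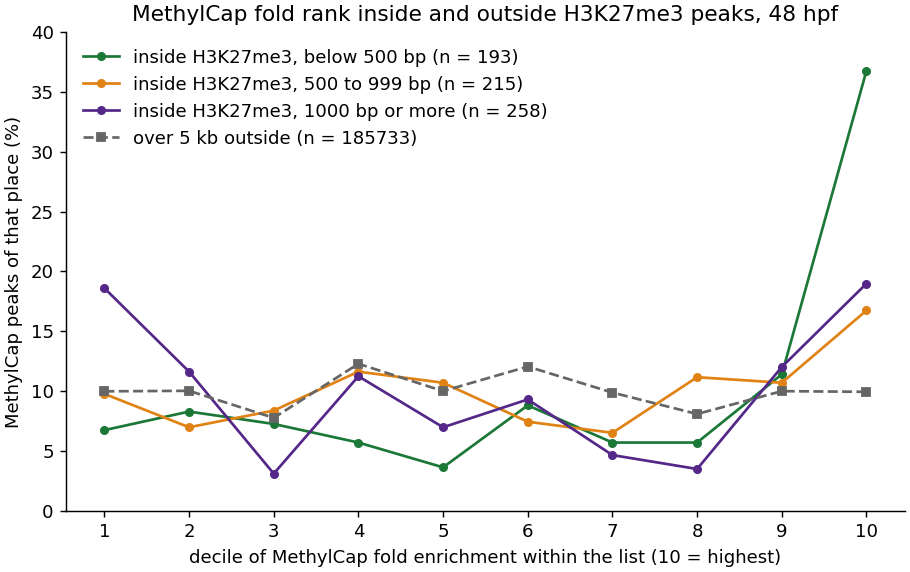
Share of MethylCap peaks (vertical axis, percent) in each decile of fold enrichment within the 48 hpf list (horizontal axis), for peaks whose summit lies inside H3K27me3 peaks of 3 width classes or over 5 kb outside. The narrow class rises to 36.8% in decile 10, and the wide class has its highest values in deciles 1 (18.6%) and 10 (19.0%).

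Read from the side of the MethylCap list, 666 of its 192673 peaks (0.346%) had the summit inside an H3K27me3 peak. The share was 0.810% (0.693 to 0.947%) in the upper decile of fold, 0.426% (0.343 to 0.528%) in the lowest and 0.194% (0.141 to 0.268%) in decile 7. MethylCap peaks inside H3K27me3 were also wider, with a median of 392 bp against 309 bp over 5 kb outside, and over the whole list the median width was 262 bp in the lowest and 511 bp in the upper decile of fold. Ranked within deciles of MethylCap width, the medians were 67.6, 48.2 and 45.6 in the narrow, middle and wide class. Ranked by −log10 q, which grows with signal as well as with fold, they were 84.7, 69.8 and 71.6. In the wide class the median rank was thus higher by −log10 q than by fold. By fold it was 45.8, with an interval (38.9 to 56.0) that held 50. The median rank of the narrow class was above 50 on 22 of 25 chromosomes and that of the wide class on 12 of the 24 that had any, with 1 to 28 peaks for each chromosome and class.

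In narrow and middle H3K27me3 peaks most of the strong MethylCap summits, those in the upper decile of fold, lay in the middle 50% of the peak. In narrow peaks 47 of the 71 strong summits (66.2%, 54.6 to 76.1%) did, and of the other 122 it was 61 (41.3 to 58.7%). In the middle class 24 of 36 strong summits (66.7%, 50.3 to 79.8%) did, and 84 of the other 179 (46.9%, 39.8 to 54.2%). In wide peaks 16 of 49 strong summits (32.7%, 21.2 to 46.6%) fell in the middle 50%, and 81 of the other 209 (38.8%, 32.4 to 45.5%). The intervals of strong and other summits overlapped in each class. This division was chosen after the values were seen.

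Within each class of H3K27me3 peaks, those with the lowest fold met MethylCap least. Folds of broad peaks are averages over the peak and fall with width, so they were compared within classes. In the lowest 20% by fold, 7.18% (5.01 to 10.2%) of narrow, 7.99% (5.80 to 10.9%) of middle and 3.49% (2.16 to 5.60%) of wide peaks overlapped a MethylCap peak. Windows of the same widths gave 10.1%, 14.8% and 30.5%. In the highest 20% the shares were 21.2% (17.5 to 25.6%), 11.9% (9.17 to 15.2%) and 12.9% (10.1 to 16.2%), against 9.95%, 14.8% and 21.98% of windows. The wide peaks of the lowest 20% were also the widest, with a median of 2041 bp against 1287 bp in the highest 20%. In percentage points the rise was largest in the narrow class, where the upper 10% by fold (from 4.04) overlapped in 59 of 196 cases (30.1%, 24.1 to 36.9%) and the rest in 12.7% (11.2 to 14.3%).

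**Figure D5:**
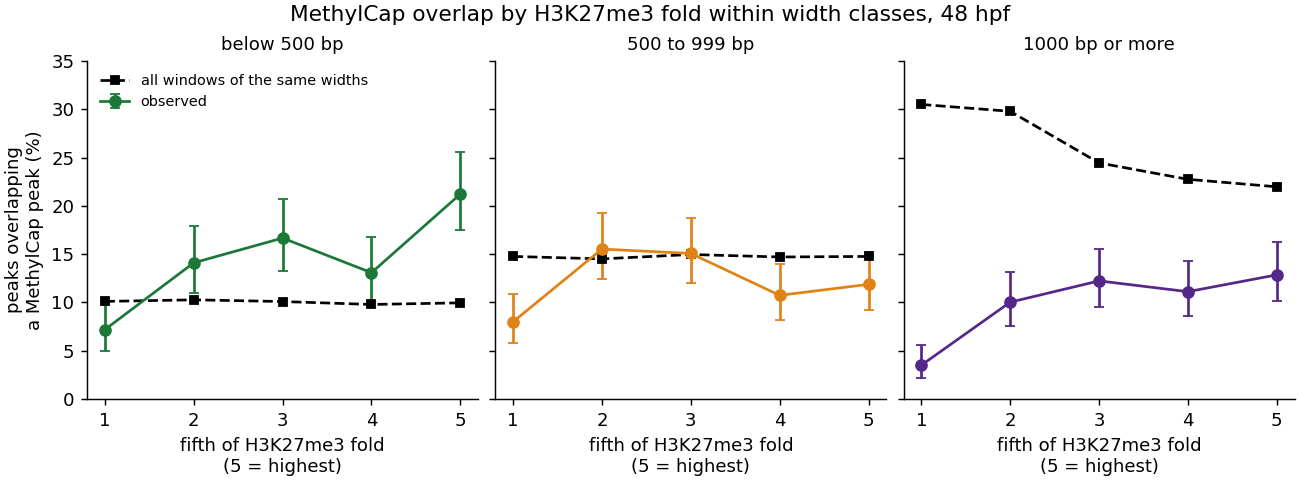
Share of H3K27me3 peaks that overlap a MethylCap peak (vertical axis, percent, Wilson 95% intervals) in 5 equal groups of rising H3K27me3 fold within each width class (horizontal axis), with the share of all windows of the same widths as dashed black lines. The narrow class passes from 7.18% to 21.2%, and the wide class starts at 3.49%, where windows reach 30.5%. The rise is not steady in any class.

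With MethylCap, narrow peaks had a median H3K27me3 fold of 3.34 (quartiles 3.07 and 3.82), against 3.22 (2.89 and 3.56) without. In the middle class the medians were 3.13 and 3.15. The values for wide peaks were 3.04 (2.67 and 3.38) and 2.91 (2.21 and 3.28). The quartile ranges overlapped broadly in all classes. By fold, the peaks with MethylCap lay above the class median in 59.2% (53.4 to 64.8%) of narrow, 48.1% (42.2 to 54.1%) of middle and 58.3% (51.8 to 64.5%) of wide cases. By the deposited score, which follows −log10 q, the shares were 50.7%, 36.9% and 38.6%. The score has no decimals, so peaks can tie at the class median. By −log10 q itself the shares were 51.1%, 40.7% and 40.8%. The excess of the narrow class was thus not seen by score or −log10 q, and the direction in the wide class turned with both. For wide peaks with MethylCap the median −log10 q was 2.11, against 2.55 without MethylCap. Over the 890 overlapping pairs, Spearman's rho between the folds of both marks was 0.331, 0.291 and 0.303 in the 3 classes. This is a description across sites that share 2 libraries and local background, with no p-value.

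Most sites with both marks at 48 hpf had MethylCap calls in the earlier lists too, as did most MethylCap peaks away from H3K27me3. Of the 778 H3K27me3 peaks with a MethylCap peak, 80.7% (77.8 to 83.3%) overlapped a MethylCap peak of dome, 83.2% (80.4 to 85.6%) one of 24 hpf and 72.4% both, and 66 had neither. Of the 5656 without a 48 hpf call, 4.76% overlapped a dome call and 6.97% a 24 hpf call, and 91.3% (90.5 to 92.0%) had neither. The share with a call at both earlier stages was alike in the classes, at 70.2%, 72.0% and 75.4%. Where any overlapping MethylCap peak was in the upper decile of fold, 89 of 94 narrow, 49 of 55 middle and 52 of 54 wide H3K27me3 peaks had calls at both.

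Counted as MethylCap peaks, the 890 that overlapped H3K27me3 had a dome call in 80.9% (78.2 to 83.3%), against 71.3% (71.1 to 71.5%) of the 191783 that did not. For 24 hpf the shares were 83.5% (80.9 to 85.8%) and 82.1%, a difference within the counting interval. Calls at both earlier stages were found for 72.6% (69.6 to 75.4%) on and 64.4% off H3K27me3. In the upper decile of fold a dome call was found for 95.1% (91.3 to 97.3%) of 206 MethylCap peaks on and 94.99% of 19054 off H3K27me3. For calls at both earlier stages it was 94.2% (90.1 to 96.6%) and 92.9%. Strong MethylCap peaks thus had earlier calls at a like share in both places. Among the others the dome shares were 76.6% (73.3 to 79.6%) and 68.6%. MethylCap peaks on and off H3K27me3 were not matched for width or −log10 q. Those with the summit inside H3K27me3 had a median width of 392 bp, against 309 bp over 5 kb outside. Their median rank by −log10 q was 74.7, against 48.2. A wider peak meets an earlier call more readily, and no share at like width was computed.

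A dome H3K27me3 peak was present at 62.4% (56.6 to 67.9%) of narrow peaks with MethylCap and 54.2% (51.8 to 56.6%) without. In the middle class the shares were 67.9% (62.1 to 73.2%) and 70.3% (68.2 to 72.3%). In the wide class they were 84.2% (78.9 to 88.4%) and 90.8% (89.4 to 91.9%), so that the order of peaks with and without MethylCap differed between the narrow and the wide class. Where a MethylCap peak of the upper decile overlapped, the shares were 76.6% (67.1 to 84.0%) of 94 narrow, 70.9% (57.9 to 81.2%) of 55 middle and 94.4% (84.9 to 98.1%) of 54 wide peaks. Peaks with and without MethylCap were not matched for width, fold or −log10 q, and no expected share was computed. Wide peaks with MethylCap had a median width of 1411.5 bp against 1501 bp without, and a median −log10 q of 2.11 against 2.55. In narrow peaks the median fold was 3.34 with and 3.22 without.

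Single regions show these forms. Among narrow peaks with a summit, the highest scores belonged to chromosome 22 from 28947282 to 28947755 (fold 10.9, with a MethylCap peak of fold 11.1 that ran on to 28949327) and to 2 sites on chromosome 2. One of these spanned 57209067 to 57209541 (fold 11.1), with a MethylCap peak from 57209105 to 57209501 (fold 13.5). The other spanned 56692332 to 56692814 (fold 10.4), with a MethylCap peak from 56692367 to 56692766 (fold 15.0). In all 3 the MethylCap summit was 236 to 240 bp from an edge of a peak 474 to 483 bp wide, that is, at its centre, and the MethylCap folds ranked at 99.94 or higher in their list. The strongest MethylCap fold inside any H3K27me3 peak was 18.5, at 27707 to 28102 on chromosome 24, in a wide peak from 26468 to 28351 (fold 3.38). Narrow peaks of high score without MethylCap had lower folds, such as 8.29 on chromosome 16 from 34174766 to 34175234, with no MethylCap call in either earlier list.

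In the middle class the highest-scoring peak with a summit lay on chromosome 15 from 36817 to 37443 (fold 10.7, MethylCap fold 7.18). On chromosome 5 from 64236617 to 64237309 the H3K27me3 fold was 11.3 and the MethylCap fold 3.77, which ranks at 30.7 in its list. The highest fold without a MethylCap peak at 48 hpf, 11.6, lay on chromosome 20 from 4645126 to 4645764, where MethylCap was called at dome and at 24 hpf. The highest-scoring wide peak with a summit lay on chromosome 9 from 16015187 to 16016536 (1350 bp, fold 5.89), with 76.3% of its bases in a MethylCap peak of fold 8.23. At these sites H3K27me3 peaks of high score thus stood with MethylCap peaks of high or low fold, or with no MethylCap call at 48 hpf.

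The peak with the most summits, 4, was on chromosome 2 from 14480980 to 14484989 (4010 bp, fold 2.14, 46.5% of bases in MethylCap peaks). A peak of 3311 bp on chromosome 4 from 61296525 to 61299835 had 3 summits and 81.5% of its bases in MethylCap peaks, although the strongest of them had a fold of only 2.03. Of the 5 widest peaks, 4 held no MethylCap peak of 48 hpf. The widest, 10493 bp on chromosome 16 from 20311328 to 20321820, held 1 of 264 bp (20311364 to 20311627, fold 3.40) with its summit 103 bp from the left edge. The peaks on chromosome 16 from 22975390 to 22981636, chromosome 10 from 22255117 to 22261077 and chromosome 11 from 28419042 to 28424865 (5824 to 6247 bp wide) held none in any of the 3 MethylCap lists.

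At dome the ratio to windows also fell with width but stood higher in each class. It was 2.56 for 19455 narrow peaks (29.0% against 11.4% of windows), 1.90 for 8241 middle peaks (32.9% against 17.3%) and 0.875 for 4287 wide peaks (25.6%, 24.3 to 26.9%, against 29.2%). Over the whole dome list 29.6% of the peaks overlapped a MethylCap peak. In the 6434 highest-scoring dome peaks the ratios were 2.44, 1.46 and 0.666, against 1.44, 0.830 and 0.384 at 48 hpf. Median widths of the 3 classes were 239, 641 and 1445 bp at dome, against 343, 722 and 1495 bp at 48 hpf. In the 6434 highest-scoring dome peaks they were 225, 759 and 1591 bp. No test between dome and 48 hpf was possible with 1 library for each mark. Stage cannot be told apart from the depth or enrichment of a library, or from these unlike widths.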

How the data were processed

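CASAVA 1.8.2, Bowtie2 2.2.1, SAMtools, MACS2 and the build danRer7 are named per the submitters' processing notes. The sources used here give no roles or parameters, input control or pooling of replicates. The deposited H3K27me3 lists have the 9-column layout of broad peaks, in which MACS2 gives values averaged over a peak. The deposited MethylCap lists have the 10-column layout of narrow peaks, whose last column gives the summit as an offset from the start. The fold enrichment, the −log10 p and −log10 q values and the score, which in both 48 hpf lists is 10 times −log10 q without decimals, are the authors' and were used only to rank or describe peaks within a list. Depth is unknown.

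Overlaps, distances, exact window shares and densities were computed with Python 3.11.15, numpy 2.4.6, pandas 2.3.3 and scipy 1.17.1, and the interval functions were tested on simulated data. The span of a chromosome ended at the highest peak end of the 5 lists. The 2 H3K27me3 peaks on the mitochondrial genome were set aside. The named regions are a selection from those with the highest score with and without MethylCap in each class, the widest, those with the most summits, those farthest from a summit, and the highest MethylCap folds. The width classes, regions and measures were chosen with earlier results of these data known. No danRer7 sequence or annotation was used, so no gene or sequence is given.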

Additional observations from a re-analysis of the deposited data

Results flagged for a closer look

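The H3K27me3 peaks of 500 to below 1000 bp overlapped MethylCap peaks of their own stage more often than windows of the same widths at dome, with a ratio of 1.90, and less often at 48 hpf, with a ratio of 0.830. This class drew attention because its ratios lay on opposite sides of 1 at the 2 stages. The difference was not tested, since each stage has 1 library for each mark. Peaks of this class were also narrower at dome, with a median of 641 bp against 722 bp at 48 hpf. At 48 hpf the ratio was 1.01 with MethylCap peaks of −log10 q of at least 5 only.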

How the results depend on the processing

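Of the 92 values recomputed under other settings, 6 lay on the other side of equality (a ratio of 1, a rank or share of 50) from the reported value. In 2 of these the interval of the reported value had excluded equality. Apart from those 2, 57 values stayed within the interval of the reported value and 33 moved out of it. The excess in narrow and the depletion in wide peaks kept their direction under all settings run. With the higher-scoring 50% of each list, the ratio to windows in narrow peaks was 2.16, inside density over flank 3.68 (1.04 in the middle class), and the edge distance relative to every base 1.13 (narrow) and 1.695 (wide). With MethylCap peaks of −log10 q of at least 5, the ratio to windows was 1.97 (narrow), 1.01 (middle, reported as 0.830, so the direction was lost) and 0.447 (wide), density over flank 3.02 (narrow), 1.29 (middle, reported as 0.951) and 0.606 (wide), relative edge distance 1.19 (narrow) and 1.64 (wide), and the density just inside wide edges over that deeper 3.78. The cause was not tested. Summits in place of any overlap gave 1.98 in narrow peaks, and H3K27me3 peaks of −log10 q of at least 2 gave 0.289 in wide ones. An overlap of 50% of the shorter peak left 12.2% of narrow and 8.63% of wide peaks. Outward summits alone gave a relative distance of 1.57 in wide peaks, and MethylCap midpoints an inner edge ratio of 2.16. Ranks by −log10 q were 84.7 (narrow) and 71.6 (wide, reported as 45.8), and within width deciles 48.2 (middle, reported as 53.5). By score, 50.7% of narrow and 38.6% of wide peaks with MethylCap lay above the class median, the latter reversed (40.8% by −log10 q). The shortened dome list gave 2.44 and 0.666. Without the upper 5% of H3K27me3 peaks by fold, chosen after the data were seen, narrow peaks had a ratio of 1.29 and a density over flank of 1.63. The other settings for the zone just inside wide edges were also added afterwards. Leaving out chromosome 4, joining within 1 kb and a span without empty stretches of 20 kb moved none of these beyond its interval. The setting with all sequences added only the 2 H3K27me3 peaks of the mitochondrial genome, where no MethylCap peak was called. It could not change the ratios to windows. No paired analysis was possible because each group had 1 library. Unknown depth limits all absences of a call.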
